A study of Mus musculus with 451 samples.

Results

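Thrombospondins, cartilage oligomeric matrix protein (Comp) and matrilins were followed in single cells of mouse tail tendon. The group was defined by name as 8 genes, the thrombospondins Thbs1, Thbs2, Thbs3 and Thbs4, Comp, and the matrilins Matn2, Matn3 and Matn4, out of 48795 gene symbols in the count table, of which 25841 had at least 1 read. All 8 genes had reads. Cells were obtained by collagenase digestion of tail tendons from 4-week-old C57BL/6 mice that were either wild-type (WT) or lacked the Mohawk homeobox gene (Mkx-/-), a transcription factor gene of the tendon lineage whose loss is followed by ectopic bone in tendon. Capture on a Fluidigm C1 high-throughput chip gave each cell a library of its own, for 227 WT and 224 Mkx-/- cells. All cells shared strain, age, tissue and digestion. Since the labels give no animal and no chip for any cell, each genotype counted as 1 sample. No test between genotypes was made, and the intervals given are 95% intervals that cover counting error only.

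The 8 genes encode secreted multi-domain glycoproteins of the extracellular matrix. Thbs1 and Thbs2 form the trimeric subgroup of thrombospondins, are known to restrain blood vessel growth through the receptor Cd36 and bind cells through Cd47 and integrins, and Thbs1 can activate latent TGF-beta. Thbs3, Thbs4 and Comp, which is also called thrombospondin 5, form the pentameric subgroup, and Comp and Thbs4 bind collagen and are abundant in tendon. Matrilins are adaptor proteins of filamentous matrix networks, with Matn3 known mainly from cartilage, where it binds Comp and collagen IX, and Matn2 and Matn4 found in a wider range of connective tissues.

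In total, 13630536 reads came from WT cells (median per cell 51788) and 14145394 from Mkx-/- cells (median 56121). Reads of the targeted gene Mkx were at 33.8 CPM (counts scaled to 1000000 reads, 30.8 to 37.1) in WT against 15.5 CPM (13.5 to 17.7) in Mkx-/- cells, so the direction followed the labels although Mkx reads remained. Cells were called tenocyte-like when the mean log2(CPM + 1) of Tnmd and Fmod, both genes of mature tendon matrix cells, was 10 or more. This class held 78 WT and 84 Mkx-/- cells, and the other cells were the remaining WT cells and 140 Mkx-/- cells. The class is a range of a score and not a separately identified type, but only 4 WT and 5 Mkx-/- cells scored between 9 and 11, the nearest to the boundary at 9.99 and 10.3 in WT and at 9.998 and 10.1 in Mkx-/- cells. All 7 tenocyte markers, Col11a2, Col1a1, Col1a2, Sparc, Tnmd, Fmod and Kera, had reads in the class, where they summed to 310641 CPM in WT against 224267 CPM in Mkx-/- cells. Within the class Col1a1, Col1a2, Sparc and Col11a2 were lower in Mkx-/- cells. Tnmd (3774 and 4877 CPM in WT and Mkx-/- cells), Fmod (4196 and 5727 CPM) and Kera (721 and 870 CPM) were higher. The median score of the class was 11.96 in WT and 12.38 in Mkx-/- cells. In the other cells the 7 markers summed to 26160 and 32038 CPM. There Tppp3, Fstl1, Ly6a, Thy1 and Cd44, markers of tendon progenitors, summed to 20606 and 19846 CPM, against 4673 and 5688 CPM in tenocyte-like cells. Median depth was 81693 and 72897 reads in WT and Mkx-/- tenocyte-like cells and 41921 and 46389 in the other cells. Over all genes the median log2 ratio between genotypes, for those with at least 100 reads, was 0.21 in tenocyte-like cells and 0.01 in other cells, and the ratios of single genes should be read against those shifts.

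Promoter sequence was examined for the genes with an entry in the RefSeq promoter table, in which 5 of the 8 genes had one, Thbs2, Thbs3, Thbs4, Matn3 and Matn4. The 4 sequences shown are the 250 bases before the RefSeq transcription start on GRCm38.p6, 5′ to 3′ on the gene's own strand, of the 3 genes with an entry that were more than 2-fold higher in Mkx-/- tenocyte-like cells, Thbs4, Thbs2 and Matn3, and of Thbs3, which was less than 2-fold higher. Capitals mark E-boxes (CANNTG, searched on both strands), the core that basic helix-loop-helix factors such as the tendon factor Scleraxis can bind. The windows lie at chr13:92794819-92795068 on the minus strand (Thbs4), chr17:14694263-14694512 on the minus strand (Thbs2), chr12:8947679-8947928 on the plus strand (Matn3) and chr3:89214930-89215179 on the plus strand (Thbs3).
Thbs4: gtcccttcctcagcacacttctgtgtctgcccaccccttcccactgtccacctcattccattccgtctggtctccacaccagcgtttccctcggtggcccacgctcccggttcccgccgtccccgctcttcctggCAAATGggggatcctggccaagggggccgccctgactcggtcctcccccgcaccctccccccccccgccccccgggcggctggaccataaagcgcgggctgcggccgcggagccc
Thbs2: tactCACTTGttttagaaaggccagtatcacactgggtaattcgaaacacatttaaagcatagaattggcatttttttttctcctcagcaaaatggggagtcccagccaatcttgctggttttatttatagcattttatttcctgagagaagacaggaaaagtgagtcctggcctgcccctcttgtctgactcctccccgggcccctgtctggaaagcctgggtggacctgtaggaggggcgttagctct
Matn3: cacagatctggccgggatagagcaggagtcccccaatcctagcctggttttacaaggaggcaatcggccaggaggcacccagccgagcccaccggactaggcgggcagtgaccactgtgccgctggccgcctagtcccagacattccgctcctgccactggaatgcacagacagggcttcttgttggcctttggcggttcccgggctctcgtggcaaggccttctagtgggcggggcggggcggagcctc
Thbs3: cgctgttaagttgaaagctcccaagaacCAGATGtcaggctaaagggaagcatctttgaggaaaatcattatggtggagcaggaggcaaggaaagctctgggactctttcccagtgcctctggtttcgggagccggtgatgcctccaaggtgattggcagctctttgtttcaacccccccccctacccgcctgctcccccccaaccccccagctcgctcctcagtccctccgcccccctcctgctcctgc
In the full windows of 300 bases, which run 50 bases past the start, Thbs4 held 2 E-boxes, at -115 and 44 from the start site, Thbs2 held 2, at -246 and 40, Thbs3 held 1 at -222, and Matn3 held 0. An E-box was present in 72.3% of 32851 promoter windows of that length, so its presence was the usual state. The GC content of the 250 bases was 70.8% for Thbs4, 65.2% for Matn3, 58.8% for Thbs3 and 46.8% for Thbs2. Neither the SOX core ACAAT nor the RUNX core TGTGGT, searched on both strands, was found in the 4 windows, and they occurred in 31% and 16.8% of all windows. The TATA motif TATAAA, present in 13.6% of all windows, was found in Thbs2 alone among these 4, at -126 on the opposite strand. Such matches describe letters and not sites of binding.

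The 8 genes together took 0.316% of the reads of WT tenocyte-like cells and 0.844% of those of Mkx-/- tenocyte-like cells. They took 0.148% and 0.206% in the other cells. Thbs4 led in every class and genotype. It held 66.9% of the reads of the 8 genes in WT tenocyte-like cells, 75.1% in Mkx-/- tenocyte-like cells, and 33.9% and 38.8% in the other cells. Per kilobase of exon (GENCODE M1 lengths), Thbs4 stood at 644 CPM per kb in WT tenocyte-like cells, followed by Matn2 at 104.2, Thbs2 at 59.6, Comp at 36.5, Thbs3 at 28.8, Thbs1 at 12.5, Matn3 at 3.72 and Matn4 at 0.439. In Mkx-/- tenocyte-like cells the order was Thbs4 at 1928 CPM per kb, Thbs2 at 163.8, Comp at 141.4, Matn2 at 80.5, Thbs3 at 50.2, Thbs1 at 28.8, Matn3 at 25.5 and Matn4 at 0.802. The chip chemistry reads mainly the 3′ ends of transcripts, for which length is not needed, and without division by length the order was the same in Mkx-/- tenocyte-like cells, while in WT Thbs3 at 138.7 CPM (130 to 147.95) stood before Comp at 88.6 CPM (81.5 to 96.04). In WT tenocyte-like cells the CPM of Matn2 (361 to 391) and Thbs2 (339 to 368) had overlapping intervals, as did those of Comp and Thbs1 (69.3 to 82.8).

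**Figure D1:**
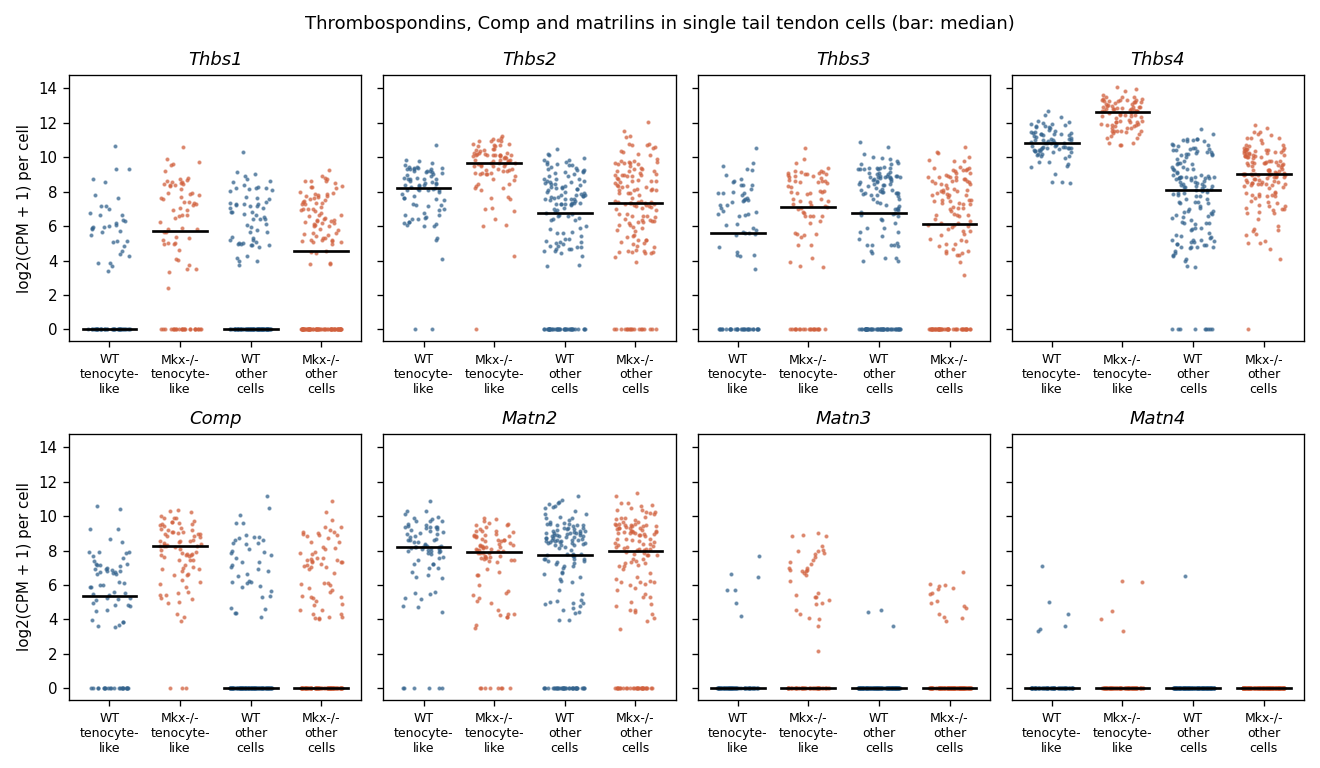
Each point is 1 cell, with log2(CPM + 1) on the vertical axis, and black bars are medians over the 78 WT and 84 Mkx-/- tenocyte-like and the remaining WT and 140 Mkx-/- other cells. Thbs4 was found in every tenocyte-like cell, with a median of 1846 CPM in WT against 6286 CPM in Mkx-/- cells, whereas the median of Matn3 and Matn4 was 0 in each group.

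Thbs4, on chromosome 13 (92751586 to 92794818 on GRCm38.p6, as for all positions, minus strand), was the most abundant gene of the group and was higher in Mkx-/- than in WT tenocyte-like cells. Its lowest, median and highest values were 369, 1846 and 6578 CPM in WT and 1667, 6286 and 17448 CPM in Mkx-/- cells. The ranges overlapped, but 81 of 84 Mkx-/- cells lay above the WT median and 38 lay above the highest WT cell. The summed level was 2118 CPM (2083 to 2153) in WT against 6340 CPM (6283 to 6399) in Mkx-/- cells, a 2.99-fold difference (log2 1.58, 1.55 to 1.61). The single cell with most Thbs4 reads held 5.80% of the WT and 6.72% of the Mkx-/- reads, so no single cell carried the difference. In the other cells the lowest, median and highest values were 0, 270 and 3149 CPM in WT and 0, 526 and 3831 CPM in Mkx-/- cells, and the summed levels of 500 and 799 CPM differed 1.6-fold (log2 0.68, 0.61 to 0.74). Only 2 of 140 Mkx-/- other cells lay above the highest WT cell.

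Reads of Thbs4 in the other cells need to be set against tenocyte reads found there, since free RNA can reach any well. The level of Thbs4 in the other cells was 23.6% of that in tenocyte-like cells in WT and 12.6% in Mkx-/- cells. For Col1a1 these percentages were 6.54% and 11.8%, for Sparc 21.6% and 30.4%, for Kera 1.48% and 5.78%, and for Tnmd, which was used to set the classes apart, 1.47% and 2.36%. The percentage of Thbs4 lay above those of all 4 of these genes in WT, by little for Sparc, and in Mkx-/- cells it lay close to that of Col1a1 and below that of Sparc. Tnmd and Fmod were also higher in Mkx-/- than in WT other cells, at 115.04 against 55.5 CPM and at 151.03 against 58.6 CPM. A Tnmd read was found in 80.5% of WT against 95.7% of Mkx-/- other cells, and a Thbs4 read in 93.96% and 99.3%. The part of free RNA in the Thbs4 reads and in the genotype difference of the other cells was not tested.

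**Figure D2:**
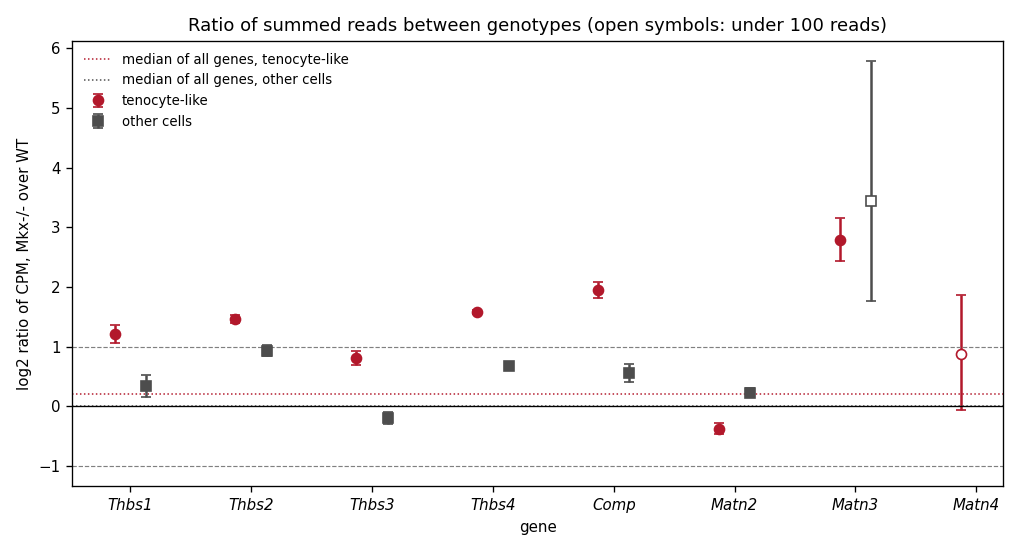
The log2 ratio of summed CPM in Mkx-/- over WT cells is plotted for each gene in tenocyte-like cells (circles) and other cells (squares), with exact 95% intervals for counting error, dashed lines at 2-fold and dotted lines at the median of all genes (0.21 and 0.01). Thbs1, Thbs2, Thbs4, Comp and Matn3 lie above the 2-fold line in tenocyte-like cells, and Thbs3 and Matn2 lie on opposite sides of 0 in the classes; Matn4 had 5 and 0 reads in other cells and has no interval there.

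Thbs2, on chromosome 17 (14665500 to 14694262, minus strand), was present in nearly all tenocyte-like cells of both genotypes and was higher in Mkx-/- cells of both classes. In tenocyte-like cells its lowest, median and highest values were 0, 299 and 1702 CPM in WT and 0, 829 and 2371 CPM in Mkx-/- cells, with 72 of 84 Mkx-/- cells above the WT median and 10 above the highest WT cell. The summed level was 353 CPM in WT against 971 CPM in Mkx-/- cells, a 2.75-fold difference (log2 1.46, 1.39 to 1.53). Reads were detected in 97.4% of WT against 98.8% of Mkx-/- tenocyte-like cells, so the difference was one of level per cell. In the other cells the median was 107.65 CPM in WT against 162.25 CPM in Mkx-/- cells, and the highest cells stood at 1417 and 4171 CPM. The summed levels of 210.96 and 403 CPM gave a log2 ratio of 0.93 (0.84 to 1.03), just under 2-fold.

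Thbs1, on chromosome 2 (118111876 to 118127133, plus strand), was found in fewer cells. The median over WT tenocyte-like cells was 0 CPM with a highest cell at 1629 CPM, and the median over Mkx-/- tenocyte-like cells was 52.3 CPM with a highest cell at 1536 CPM. Reads were detected in 46.2% of WT (34.8 to 57.8) against 70.2% of Mkx-/- tenocyte-like cells (59.3 to 79.7), which is 24.1 percentage points more (8.90 to 37.8). The summed level was 75.8 CPM in WT against 175.06 CPM in Mkx-/- cells (log2 ratio 1.21, 1.06 to 1.36). One WT cell held 35.3% of the WT reads, and with the leading cell of each genotype left out the log2 ratio was 1.67. That WT cell held only 9.21 CPM of the summed endothelial, leukocyte, platelet, Schwann, muscle and keratinocyte markers with the mural genes Rgs5, Myh11 and Des. The ratio was below 2-fold, at 0.997, when size factors from the median of gene ratios replaced library totals, and at 0.68 when only the 36 WT and 45 Mkx-/- cells with a Tnmd and Fmod score of 12 to 13 were compared. In other cells Thbs1 was at 64.8 and 81.8 CPM (log2 ratio 0.34, 0.16 to 0.52).

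Thbs3, on chromosome 3 (89215180 to 89226841, plus strand), overlaps exons of Mtx1 on the opposite strand, and reads of the genes cannot be told apart where the strand was not used in counting. In tenocyte-like cells its lowest, median and highest values were 0, 47.1 and 1516 CPM in WT and 0, 140 and 1478 CPM in Mkx-/- cells. The summed level was 138.7 CPM in WT against 242 CPM in Mkx-/- cells (log2 ratio 0.81, 0.69 to 0.92). In the other cells the median was 106.9 CPM in WT against 68.2 CPM in Mkx-/- cells, and the summed levels of 248 and 217.95 CPM gave a log2 ratio of -0.19 (-0.29 to -0.09). Thbs3 was thus the thrombospondin with values on opposite sides of 0 in the classes. Mtx1 was at 30.7 and 31.6 CPM in WT and Mkx-/- tenocyte-like cells and at 46.5 and 40.8 CPM in the other cells.

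Comp, on chromosome 8 (70373548 to 70382066, plus strand), differed between genotypes mainly in tenocyte-like cells. Its lowest, median and highest values there were 0, 39.4 and 1547 CPM in WT and 0, 302 and 1335 CPM in Mkx-/- cells. The ranges overlapped over their whole width, and 74 of 84 Mkx-/- cells lay above the WT median. The summed level was 88.6 CPM in WT against 343 CPM in Mkx-/- cells, a 3.87-fold difference (log2 1.95, 1.82 to 2.09). Reads were detected in 70.5% of WT (59.1 to 80.3) against 96.4% of Mkx-/- tenocyte-like cells (89.9 to 99.3), and in 56.4% and 88.1% once each cell was thinned to 25000 reads. In the other cells the median was 0 in both genotypes, the highest cells stood at 2317 and 1884 CPM, and the summed levels of 81.99 and 120.8 CPM gave a log2 ratio of 0.56 (0.40 to 0.71). That ratio was 0.20 with cells thinned to 25000 reads and 0.33 with the mean of per-cell CPM. It was 0.77 without cells high in markers of other cell types. A single cell held 16.7% of the WT and 17.9% of the Mkx-/- Comp reads there. In WT cells the summed CPM of Comp was similar in the other cells and in tenocyte-like cells, but Comp was found in 28.2% of the other cells against 70.5% of the tenocyte-like cells. In cells with a Comp read the median was 160.8 CPM in WT other cells and 99.3 CPM in WT tenocyte-like cells.

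**Figure D3:**
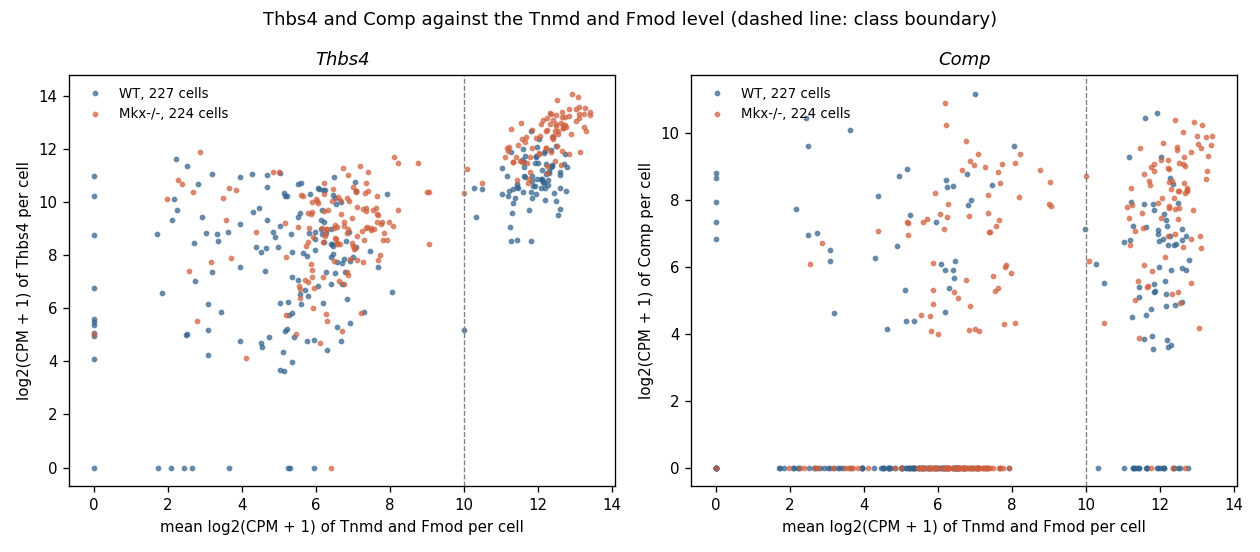
Each point is 1 of the 227 WT or 224 Mkx-/- cells, with the mean log2(CPM + 1) of Tnmd and Fmod on the horizontal axis and log2(CPM + 1) of Thbs4 (left) or Comp (right) on the vertical axis, and the dashed line at 10 is the class boundary. The log2 level of Thbs4 had a correlation with that of Tnmd of 0.57 in WT and 0.74 in Mkx-/- cells, and Comp one of 0.24 and 0.58, with some other cells high in Comp at low scores.

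Among the other cells, Comp was higher in those with a read of Itm2a, a membrane protein gene listed as a tenoblast marker. Cells with an Itm2a read (95 WT and 98 Mkx-/- cells) held Comp at 118.5 CPM (108.6 to 129.09) in WT against 154.07 CPM (143.4 to 165.3) in Mkx-/- cells. Cells without one (54 and 42 cells) held it at 19 CPM (14.1 to 25.1) and 30.6 CPM (23.2 to 39.6). A Comp read was present in 34.7% of WT against 51% of Mkx-/- other cells with Itm2a and in 16.7% and 26.2% of those without. Median depth was 42098 and 41178 reads in WT cells with and without Itm2a and 48868 and 43264 in Mkx-/- cells. Thbs1, Thbs2 and Thbs4 differed by less than 1.5-fold between cells with and without Itm2a in both genotypes. Thbs3 was at 197.2 CPM with and 336 CPM without Itm2a in WT cells but at 236 and 168.02 CPM in Mkx-/- cells, and Matn2 at 393 and 325 CPM in WT and 387 and 548 CPM in Mkx-/- cells, so neither had one direction. Over the other cells the log2 level of Comp had a correlation with the summed tenoblast markers Itm2a and Lgals3 of 0.39 in WT and 0.41 in Mkx-/- cells, and with the progenitor markers of -0.36 in both. These cells share libraries of 1 sample and vary in depth, so the correlations are descriptions.

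**Figure D4:**
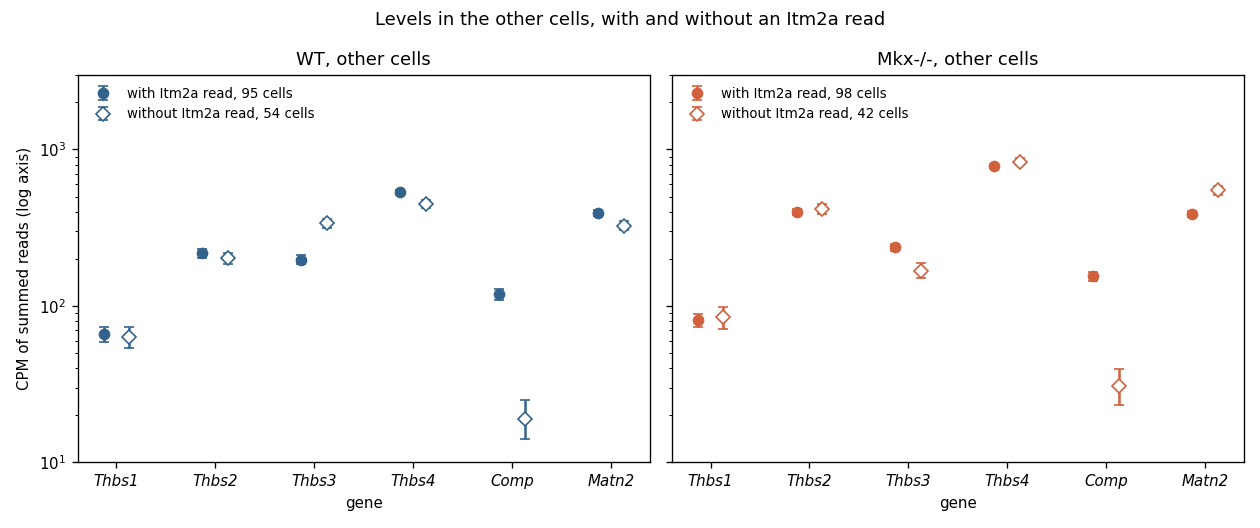
The CPM of summed reads is plotted on a log axis for 6 genes in the other cells with an Itm2a read (filled circles) and without one (open diamonds), in WT (left) and Mkx-/- (right), with exact Poisson 95% intervals. Comp stands apart from the other 5 genes in both panels, at 118.5 against 19 CPM in WT and 154.07 against 30.6 CPM in Mkx-/- cells.

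Matn3, on chromosome 12 (8947929 to 8972028, plus strand), was rare in WT and found in part of the Mkx-/- tenocyte-like cells. Reads were detected in 7 of 78 WT cells (8.97%, 3.68 to 17.6) and 36 of 84 Mkx-/- cells (42.9%, 32.1 to 54.1), and in 6.41% and 35.7% at 25000 reads per cell. The highest cell stood at 207.4 CPM in WT against 516 CPM in Mkx-/- cells, and the median of the cells with a read was 51 and 114.6 CPM. The summed level was 11.2 CPM in WT, from 74 reads, and 76.9 CPM in Mkx-/- cells, from 556 reads (log2 ratio 2.78, 2.43 to 3.15). One WT cell held 56.8% of the WT reads, and with the leading cell of each genotype left out the log2 ratio was 3.81. It was 2.01 over cells with a Tnmd and Fmod score of 12 to 13. In other cells Matn3 had only 3 WT and 32 Mkx-/- reads (ratio 10.8, 3.39 to 55.3), a log2 ratio of 3.44 that was 1.37 with the class boundary at 11. Its level in other cells was 3.81% of that in tenocyte-like cells in WT and 6.01% in Mkx-/- cells. These percentages lay below those of Col1a1 (6.54% and 11.8%), Col1a2 (6.76% and 12.7%) and Sparc (21.6% and 30.4%). They lay above those of Kera (1.48% and 5.78%), Col11a2 (1.11% and 3.61%), Fmod (1.40% and 2.64%) and Tnmd (1.47% and 2.36%). The part of free RNA in the Matn3 reads of other cells was not tested.

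All 7 WT and all 36 Mkx-/- tenocyte-like cells with Matn3 also held Comp. That gene was present in 55 of 78 WT and 81 of 84 Mkx-/- tenocyte-like cells. The median of Comp was 102.1 CPM with and 35.7 CPM without Matn3 in WT cells. In Mkx-/- cells it was lower with Matn3, at 232 against 308 CPM. The cartilage list was not higher as a whole. Its 6 chondrocyte markers Acan, Col2a1, Col9a1, Col10a1, Sox9 and Matn1 summed to 563 CPM in WT against 399 CPM in Mkx-/- tenocyte-like cells. Col10a1 and Matn1 were at 0 in all groups, which for Matn1 allows up to 3 reads in each group. Col2a1 was at 323 and 220 CPM and Acan, the large aggregating proteoglycan of cartilage, at 17.4 and 37.8 CPM.

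Matn2, on chromosome 15 (34306681 to 34436242, plus strand), was among the more abundant genes of the group in every group of cells and showed small ratios. In tenocyte-like cells its lowest, median and highest values were 0, 291 and 1910 CPM in WT and 0, 239 and 940 CPM in Mkx-/- cells, with summed levels of 376 and 290 CPM (log2 ratio -0.37, -0.46 to -0.29). Among other cells the values were 0, 215.3 and 2262 CPM in WT and 0, 249.2 and 2615 CPM in Mkx-/- cells, with summed levels of 368 and 431 CPM (log2 ratio 0.23, 0.15 to 0.30). Matn2 was thus the only member with at least 100 reads that was lower in Mkx-/- tenocyte-like cells, where the median of all genes was 0.21. Matn4, on chromosome 2 (164389393 to 164405160, minus strand), had 15 and 30 reads in WT and Mkx-/- tenocyte-like cells and 5 and 0 reads in the other cells. One Mkx-/- cell held 70% of its reads in that class, its ratio had an interval across 0 (log2 0.87, -0.07 to 1.87), and its exons overlap those of Rbpjl on the opposite strand, so no direction was read.

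Counted by a rule of size, 5 of the 7 members with at least 100 reads were at least 2-fold higher in Mkx-/- tenocyte-like cells (Thbs1, Thbs2, Thbs4, Comp and Matn3), and 0 were at least 2-fold lower. Of 8368 genes with at least 100 reads in that class, 13.8% were at least 2-fold higher and 6.62% at least 2-fold lower. The median log2 ratio of the 7 members was 1.46, against 0.21 for all genes. Among other cells 0 of 6 members passed 2-fold in either direction, where 7.47% of 9332 genes were higher and 6.65% lower, and the median over members was 0.45 against 0.01. Over all cells 4 of 7 members were at least 2-fold higher (Thbs2, Thbs4, Comp and Matn3) and 0 lower, where 7.23% of 10963 genes were higher and 6.12% lower. Matn3 met the minimum of 100 reads only through Mkx-/- cells. It had 74 WT and 556 Mkx-/- reads in tenocyte-like cells, and 77 and 588 over all cells. With 3 and 32 reads in other cells it fell below the minimum and was not counted there, at a log2 ratio of 3.44. The counts describe the 8 genes and are not a test. Since the members were chosen with earlier results of these data known, their counts and medians are not free of that choice.

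**Figure D5:**
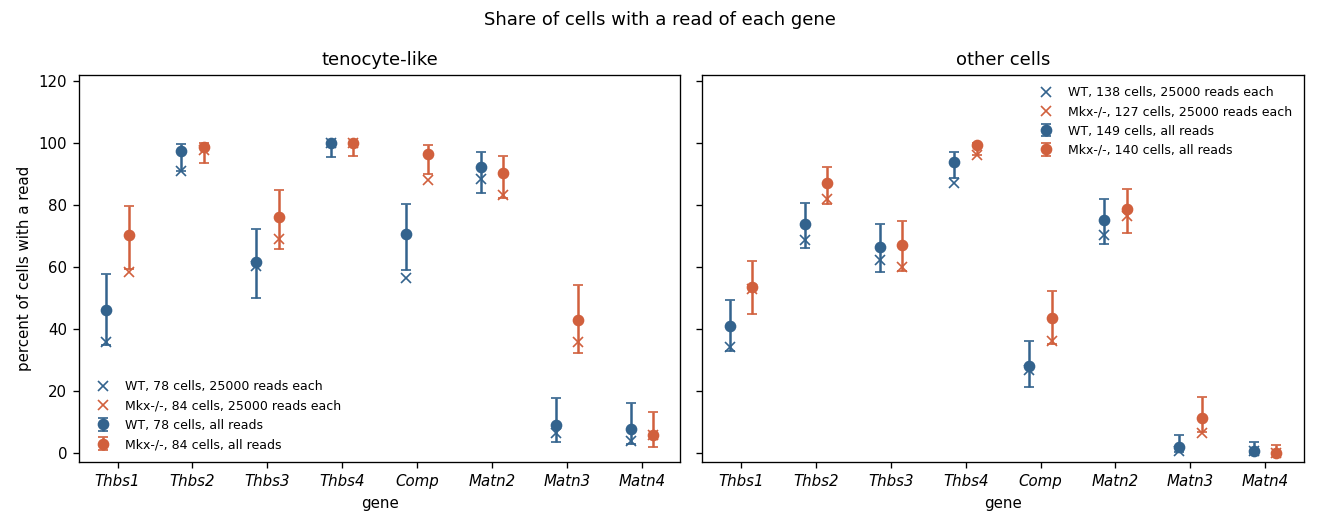
The percent of cells with a read is plotted for each gene in tenocyte-like (left) and other cells (right), as circles with exact Clopper-Pearson 95% intervals over all reads and as crosses after thinning each cell to 25000 reads. Comp and Matn3 show the widest gaps between genotypes in tenocyte-like cells, at 70.5% against 96.4% and at 8.97% against 42.9% of cells, while Thbs4 was found in 100% of them in both genotypes.

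Tenocyte-like cells held a read of a median of 5 members in WT and 6 in Mkx-/- cells, and 6 or more members were found in 28.2% of WT against 60.7% of Mkx-/- cells. At 25000 reads per cell 6 or more were found in 15.4% and 45.2%. More genes in all were also detected per Mkx-/- cell, at a median of 3312 against 3109.5 in WT, and of 2660 against 2466.5 at 25000 reads. The median of the other cells was 4 members in both genotypes, with 6 or more in 5.37% and 13.6%, and in 5.07% and 6.30% at 25000 reads, where 11 WT and 13 Mkx-/- cells were too shallow and were left out. Their median number of genes was 2778 in WT against 3050.5 in Mkx-/- cells, and 2626 against 2740 at 25000 reads.

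The Newcombe interval of the difference in the share of cells with a read covers counting of cells only and is no test of genotype. In tenocyte-like cells it lay above 0, with the higher share in Mkx-/- cells, for 4 of 7 members with at least 100 reads, Thbs1, Thbs3, Comp and Matn3, where it did for 9.69% of all genes with as many reads. At 25000 reads per cell, for which no tenocyte-like cell was left out, it did for 3 of them against 8.72% of all genes, and the interval for Thbs3 reached from -5.83 to 23 percentage points. Among other cells it lay above 0 for 4 of 6 members, Thbs1, Thbs2, Thbs4 and Comp, against 9.18% of all genes, and at 25000 reads for 3 of 6 against 6.75%, with Comp at 9.41 points (-1.75 to 20.3). With its 35 reads Matn3 lay above 0 there at both depths.

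Within a genotype, tenocyte-like cells were compared with the other cells. The log2 ratio of tenocyte-like to other cells had a median over all genes of 100 reads or more of -0.65 in WT and -0.43 in Mkx-/- cells, so a member near 0 lay above most genes. In WT cells only Thbs4 of the 6 members with at least 100 reads was at least 2-fold higher in tenocyte-like cells (4.24-fold), where 6.4% of 8917 genes were. In Mkx-/- cells 5 of 7 members were, where 6.49% of 9040 genes were, namely Thbs4 (7.94-fold), Matn3 (16.6-fold), Comp (2.84-fold), Thbs2 (2.41-fold) and Thbs1 (2.14-fold). At 25000 reads per cell 4 were, with Thbs1 at a log2 ratio of 0.999, and no share of all genes is given at that depth. Matn3 was left out of the WT count, since it had 74 reads in WT tenocyte-like and 3 in WT other cells. Its WT value was 26.2-fold (log2 4.71, 3.11 to 7.02), so its higher level in tenocyte-like cells was not particular to Mkx-/- cells. For Comp the log2 ratio between the classes was 0.11 (-0.06 to 0.28) in WT but 1.5 (1.39 to 1.62) in Mkx-/- cells. The WT value of Comp was 0.45 with the mean of per-cell CPM and 0.59 with Col1a1, Col1a2 and Sparc left out of the library totals. Thbs3 was lower in WT tenocyte-like than other cells (log2 -0.84, -0.96 to -0.72) and slightly higher in Mkx-/- cells (0.15, 0.05 to 0.25). The log2 ratio of Matn2 was 0.03 (-0.05 to 0.11) in WT but -0.57 (-0.65 to -0.49) in Mkx-/- cells. With those 3 genes left out of the totals, Thbs3 was at -0.36 in WT and 0.45 in Mkx-/- cells, and Matn2 at 0.51 and -0.27.

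The genes whose pattern over cells was most like that of each member were ranked among 4710 genes detected in 20% or more of the cells of each genotype, by the lower of the Pearson correlations of log2(CPM + 1) over 227 WT and 224 Mkx-/- cells. For Thbs4 these were Tnmd (0.57 in WT and 0.74 in Mkx-/- cells), Col1a2 (0.57 and 0.76) and Sparc (0.56 and 0.69), and for Thbs2 they were Col1a1 (0.37 and 0.45), Col1a2 (0.36 and 0.47) and Sparc (0.33 and 0.43). For Comp they were Igfbp7 (0.53 and 0.60), Mgp, an inhibitor of calcification (0.49 and 0.66), and Fxyd6 (0.44 and 0.52). The first genes for Matn2 (Tspan3, 0.28 and 0.23), Thbs3 (Gm6542, 0.26 and 0.21) and Thbs1 (Rbms3, 0.18 and 0.16) had weak correlations. Within tenocyte-like cells alone Thbs4 had a correlation with Fmod of 0.30 in WT and 0.67 in Mkx-/- cells, whereas Thbs4 and Comp had one of 0.17 and 0.15. Cells of a genotype share a sample and differ in depth, so these values are descriptions.

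Known receptors, matrix ligands and proteases of the group were taken from a list of 31 genes. In tenocyte-like cells 22 of them had at least 100 reads, of which 5 were at least 2-fold higher in Mkx-/- cells and 0 lower, where 13.8% and 6.62% of all genes were, with a median log2 ratio of 0.17 against 0.21 for all genes. Among 9 receptors 0 passed 2-fold in either direction. The integrin Itgb1 was at 483 and 512 CPM in WT and Mkx-/- cells and Cd47 at 102.04 and 177.1 CPM (log2 ratio 0.80, 0.66 to 0.93). Among 8 matrix genes that bind the members, 3 were higher. The small proteoglycan Bgn was at 246 and 1112 CPM (log2 ratio 2.18, 2.10 to 2.26), fibronectin Fn1 at 582 and 1306 CPM (1.17, 1.11 to 1.22), and Acan had a log2 ratio of 1.12 (0.80 to 1.45). Col1a1, the most abundant of them, was at 107594 and 78393 CPM (-0.46, -0.46 to -0.45), and Dcn at 8382 and 7614 CPM (-0.14, -0.16 to -0.12). Of 4 proteases, Adamts7, which cleaves Comp, was at 8.93 and 19.9 CPM (1.16, 0.71 to 1.62) and the collagenase Mmp13 at 16.3 and 34.04 CPM (1.06, 0.73 to 1.40).

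Among other cells 22 of the 31 genes had at least 100 reads, of which 1 was at least 2-fold higher, Mmp13 (5.27 and 22.7 CPM), and 1 at least 2-fold lower, Adamts12, another protease of Comp (18.6 and 5.64 CPM), where 7.47% and 6.65% of all genes were, with a median log2 ratio of 0.20. Over all cells 4 of 25 were higher (Acan, Bgn, Fn1 and Mmp13) and 2 lower (Cd36 and Adamts12), where 7.23% and 6.12% of all genes were, with a median of 0.13. Cd36, the receptor through which Thbs1 and Thbs2 act on endothelium, was at 10.6 CPM in WT against 2.90 CPM in Mkx-/- cells over all cells. In tenocyte-like cells Cd36 had 62 reads (9.39 CPM) in WT and 0 in Mkx-/- cells. Those reads came from few WT cells. The difference in the share of cells with a read was -5.13 percentage points (-12.5 to 0.24). Among other cells Cd36 was at 11.7 and 5.93 CPM. The 5 endothelial, 5 leukocyte and 3 platelet markers summed to 79.02, 84.2 and 23.3 CPM in WT tenocyte-like cells against 10.9, 9.69 and 1.94 CPM in Mkx-/- ones, and 1 WT cell held 75.3% of the endothelial and 1 held 68.2% of the leukocyte reads. Among other cells the endothelial markers were lower in Mkx-/- cells, at 97.9 against 52.8 CPM, but the leukocyte and platelet markers were higher, at 149.5 against 173.4 CPM and at 73.2 against 84.4 CPM. Their part in the Cd36 values was not tested. Without the 5 WT and 1 Mkx-/- tenocyte-like cells over 1000 CPM in 25 markers of endothelial, leukocyte, platelet, Schwann, muscle and keratinocyte cells with Rgs5, Myh11 and Des, Thbs1, Thbs2, Thbs4, Comp and Matn3 remained more than 2-fold higher in Mkx-/- tenocyte-like cells. The mural genes Acta2 and Cspg4 were not in that sum, and 3 Mkx-/- tenocyte-like cells over 1000 CPM in the 5 mural markers were kept. Ltbp1, which holds TGF-beta latent, was lower in both classes, at 148.06 and 84.7 CPM in tenocyte-like cells (log2 ratio -0.81, -0.95 to -0.66) and at 145.5 and 88.02 CPM in other cells (-0.72, -0.87 to -0.58).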

How the data were processed

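Values were the raw counts of reads per gene symbol in each cell that the authors deposited, used without change. According to the study's methods, reads were filtered with AfterQC, trimmed, aligned with bowtie2 and counted with featureCounts. Those methods name the build mm9, whereas the submitters' processing notes name mm10, so positions and promoters were taken from RefSeq tables (GRCm38.p6) by symbol only, and exon lengths from GENCODE M1. The handling of multi-mapped reads and of strand is not given in the sources used here. The counts are reads and not unique molecules. No 2 cells had identical counts, no doublet caller was run, and wells without 1 cell had been removed by the submitters.

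Counts were summed per genotype and class and scaled to CPM with Python 3.11.15, numpy 2.4.6, scipy 1.17.1 and pandas 2.3.3. Poisson, conditional binomial, Clopper-Pearson and Newcombe intervals were computed at 95%, after a check on simulated counts. The sums simulated for the ratios were Poisson draws. That check therefore could not show how the intervals hold for reads gathered in single cells. A sum of 0 was set to 3 reads in a ratio, and pairs of sums of 3 or fewer were given no ratio. A gene was counted past 2-fold with at least 100 reads over both groups and an absolute log2 ratio of at least 1. Correlations used log2(CPM + 1). The named genes were the 8 members, Mkx, Tnmd, Fmod, listed partner genes past 2-fold with at most 3 others per role, and the 3 most alike genes per member. Kera, Sparc and the genes overlapping members, the split by Itm2a and the comparison of levels in other cells were added after values were seen. The members and lists were chosen with earlier results of these data known. Alternatives comprised other class boundaries, scalings, depths, read minimums and left-out cells.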

Additional observations from a re-analysis of the deposited data

Results flagged for a closer look

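The log2 ratio of Mkx-/- to WT lay on opposite sides of 0 in the classes for 2 members, beyond the counting interval in each class. For Thbs3 it was 0.81 in tenocyte-like and -0.19 in other cells, a difference of 0.99. For Matn2 it was -0.37 in tenocyte-like and 0.23 in other cells, a difference of -0.60. Among 7849 genes with at least 100 reads in each class, 1541 (19.6%) did so. With 1 sample per genotype neither difference was tested, and Mtx1, which overlaps Thbs3, had log2 ratios of 0.04 and -0.19.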

How the results depend on the processing

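Thbs2, Thbs4, Comp and Matn3 were more than 2-fold higher in Mkx-/- cells under all 7 alternatives over all cells and all 10 in tenocyte-like cells, and Thbs1 under 8 of 10 in tenocyte-like cells. Over the alternatives in tenocyte-like cells the log2 ratio ranged from 1.37 to 1.6 for Thbs4, 1.61 to 2.06 for Comp, 2.01 to 3.81 for Matn3 and 0.68 to 1.67 for Thbs1. For Thbs2 it ranged from 1.25 to 1.43, so each alternative lay below the reported 1.46. Over all cells Thbs1 was at 1.07 without the leading cell of each genotype, against 0.88 with it. Restriction to cells under 5000 genes turned Matn4 to -2.29 over all cells and -1.87 in tenocyte-like cells, where it rested on few reads, and the cause was not tested. Exclusion of cells high in 25 markers of other cell types and restriction to scores of 12 to 13 were chosen after seeing the data.

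The members whose interval of the difference in share lay above 0 in other cells numbered 5, and 3 when detection needed 3 reads. No share of all genes is given for 3 reads. With library totals counted without Col1a1, Col1a2 and Sparc, 2 members were at least 2-fold higher in WT tenocyte-like than other cells. That scaling also raised the log2 ratio of a member below 2-fold, as for Thbs1 from 0.23 to 0.71. No share of all genes is given for it. The percent of all genes past 2-fold depended on the read minimum. At 10 reads it was 14.9% higher and 18.8% lower over all cells, 21.4% and 19.9% in tenocyte-like cells, and 16.5% and 17.2% in other cells. At 500 reads it was 2.76% and 1.33%, 7.04% and 1.39%, and 1.97% and 1.64%. At 10 reads 4 partner genes were lower over all cells and 4 in tenocyte-like cells, and 2 were higher and 2 lower in other cells. With the mean of per-cell CPM 1 partner gene was lower over all cells and 2 were higher in other cells, again without a share of all genes. Among counts with an alternative, 78 stayed within 1.5 times the reported one and 20 did not. Among log2 ratios and share differences of single members, 270 alternative values stayed near the reported one and 110 moved away from it.

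No paired analysis was possible because the labels give the cells of the genotypes no shared replicate number. Each genotype was 1 sample, so animal, chip and genotype cannot be told apart. Counting intervals describe reads only, which are not unique molecules, and differences between animals are not covered by them. Genes with few reads, such as Matn4 and Matn3 in WT cells, rest on few cells. Matn3 had reads in 10 WT cells, 1 of which held 54.5% of them, and Matn4 in 7.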
